A study of Mus musculus with 15 samples.

Results

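The cytosolic heat shock chaperone transcripts described here are the 8 genes Hspa1b, Hspa1a, Hspb1, Hspa8, Hsph1, Dnajb1, Hsp90aa1 and Hsp90ab1, out of 53700 genes in the deposited count tables. They were chosen by name, and part of the choice rested on measured values, because Hspb1 had been noted for its change in oocytes without Padi6 and Hspa1b for its change in oocytes without Tle6. Those values, and those of Hspa1a, whose coding sequence is nearly that of Hspa1b, are therefore given as descriptions with no p-value. All 8 genes had enough counts to be tested in every comparison.

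RNA was measured in germinal vesicle (GV) stage oocytes of the mouse, which are fully grown and still arrested in the prophase of the first meiotic division, in libraries of 15 oocytes. The Padi6 line, on the FVB/N strain background, had 3 libraries from Padi6 heterozygotes (Padi6 het) and 3 from Padi6 knockouts (Padi6 KO). The Tle6 line, of C57BL/6J mice, had 2 biological replicates from Tle6 heterozygotes (Tle6 het) and 4 from Tle6 knockouts (Tle6 KO), and both het replicates and KO replicate 4 were each sequenced as technical libraries A and B, which were added together. By genotype, the controls of each line carry 1 mutant allele, although short names in the sample titles abbreviate them as WT, a difference that the expression values were not used to settle. No wild-type group was analysed here by genotype, and neither the age of the females, the part of each gene that was deleted nor the animals behind each library is stated, so a p-value reflects only the spread between the samples, which may be technical. Oocytes that lack PADI6 or TLE6 are known to form no cytoplasmic lattices, the fibrous structures that fill the cytoplasm of a mouse oocyte.

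Heat shock proteins bind unfolded or partly folded proteins and keep them from aggregating. HSP70 proteins hold a client in cycles of ATP hydrolysis that J proteins start and HSP110 proteins help to reset, HSP90 proteins complete the folding of kinases and receptors, and small heat shock proteins hold clients without using ATP. Each family has members made at all times and members that stress induces through the transcription factor HSF1, which binds heat shock elements, repeats of the letters GAA and their complement TTC in alternation. HSF1 is known to be active in mouse oocytes without outside stress and to be needed there for meiotic maturation.

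Letters of such elements were looked for at the start of the members. The 250 bases before the annotated transcript start are given here for Hspa1b, Hspb1 and Hsph1, the 2 genes noted for their change and the HSP110 gene (Hspa1a nearly repeats Hspa1b), 5′ to 3′ on the strand of the gene, from RefSeq promoter sequences on GRCm38.p6. Capitals mark heat shock elements of 2 units, GAANNTTC or TTCNNGAA, each of which reads the same on both strands. The Hspa1b stretch lies on the minus strand at chr17:34959239-34959488, that of Hspb1 on the plus strand at chr5:135887669-135887918 and that of Hsph1 on the minus strand at chr5:149636337-149636586.
Hspa1b: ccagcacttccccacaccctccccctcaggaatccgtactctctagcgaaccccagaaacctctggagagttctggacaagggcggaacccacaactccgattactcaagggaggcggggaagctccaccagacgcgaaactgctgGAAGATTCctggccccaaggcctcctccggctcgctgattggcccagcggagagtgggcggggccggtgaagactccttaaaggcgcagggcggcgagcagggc
Hspb1: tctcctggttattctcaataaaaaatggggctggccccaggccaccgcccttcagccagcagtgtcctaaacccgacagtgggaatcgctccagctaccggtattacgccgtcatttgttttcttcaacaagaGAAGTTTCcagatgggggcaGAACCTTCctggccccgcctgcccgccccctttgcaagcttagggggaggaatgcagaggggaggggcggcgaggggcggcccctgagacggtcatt
Hsph1: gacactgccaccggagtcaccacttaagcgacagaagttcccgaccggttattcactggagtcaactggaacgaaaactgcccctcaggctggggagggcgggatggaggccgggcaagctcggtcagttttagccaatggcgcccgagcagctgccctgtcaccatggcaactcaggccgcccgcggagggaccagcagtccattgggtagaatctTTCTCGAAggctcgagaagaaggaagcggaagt

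A 2-unit element stood 104 to 97 bases before the start in Hspa1b, 117 to 110 and again 97 to 90 bases before it in Hspb1, and 33 to 26 bases before it in Hsph1. Hspa1a, on the minus strand at chr17:34972157-34972406, had the element of Hspa1b at the same distance, and its 250 bases differed from those of Hspa1b at 3 positions, C44T, T47C and T249G, with the Hspa1a base first and positions counted from 1 at the 5′ end. Neither 2-unit form was found in the 250 bases before either annotated start of Dnajb1. Of 32851 promoters of the same length, 12.8% held a 2-unit form and 0.466% a 3-unit form (a 2-unit element followed after 2 bases by a further unit, so that it contains both 2-unit forms; searched on both strands), and no member with a promoter sequence held a 3-unit form in this window. A CCAAT box, searched as CCAAT and ATTGG and found in 33.8% of promoters, stood 67 to 63 bases before the start in Hspa1b and Hspa1a, at 2 places in Hsph1 and at 1 place before the first start of Dnajb1. A match of letters is not evidence of binding, and promoter sequences of Hspa8, Hsp90aa1 and Hsp90ab1 were not used here.

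**Figure D1:**
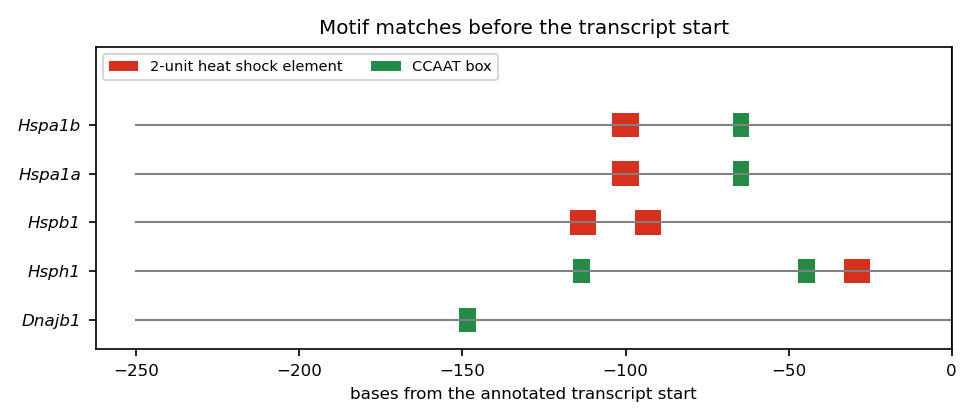
Matches to the 2-unit heat shock element (red) and the CCAAT box (green) along the 250 bases before the first annotated transcript start of 5 members; the x axis is the distance from the start in bases. Hspa1b and Hspa1a share 1 element at the same place, Hspb1 has 2, Hsph1 has 1 close to the start, and Dnajb1 has a CCAAT box only.

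Gene counts per library ranged from 30100177 to 74947533. The targeted transcripts followed the labels. Padi6 stood between 1737 and 1852 CPM (counts-per-million of the gene total) in Padi6 het and between 19.3 and 26.6 CPM in Padi6 KO, and Tle6 at 363 and 401 CPM in Tle6 het and 61.5 to 94.8 CPM in Tle6 KO. The technical libraries of Tle6 het replicate 2 disagreed for several members. Oocyte markers were high in every library, with Gdf9, an oocyte growth factor, between 2824 and 5000.0 CPM over the 12 replicates, while Ptprc of immune cells reached 0.135 CPM at most and Col1a1 of stroma 0.131 CPM. Of the granulosa and cumulus list, Fshr reached 1.08 CPM and Amh 0.166 CPM, but Serpine2 stood at 288 to 661 CPM within a summed level of 393 to 784 CPM per replicate. In a pool of oocytes, fewer oocytes with a transcript and less of it in each oocyte cannot be told apart.

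Per kilobase of exon, the members spanned a wide range. Length was counted over all annotated exons of a gene, 7266 bases for Hsph1 and 4301 for Hspa8. The longest protein-coding transcripts of these have 3802 and 2394 bases, so their order and overlaps among the members depend on the length used. Hsp90aa1, the inducible cytosolic HSP90, was the most abundant member per length in all 4 groups, at group means of 285 to 338 CPM per kilobase, and Hsp90ab1, the HSP90 made at all times, was at 84.0 to 115 and second in all groups but Tle6 KO, where Dnajb1 had a mean of 88.1 and overlapping replicates. Dnajb1, the J protein that serves HSP70, had means of 46.9 to 93.3 CPM per kilobase and Hspa8, the HSP70 made at all times, 45.8 to 72.7, and their ranges overlapped in all 4 groups. Hsph1, an HSP110 that resets HSP70, was at 16.4 to 37.8. Hspb1, the small heat shock protein also called HSP25, was at 2.10 to 5.85 CPM per kilobase, Hspa1b at 1.05 to 26.1 and Hspa1a at 0.0864 to 0.586. In Tle6 KO the replicates of Hspa1b, at 19.8 to 35.1 CPM per kilobase, overlapped those of Hsph1, at 26.2 to 51.3. These levels leave out reads that matched several places, which lowers them most in the genes with close copies described further on.

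**Figure D2:**
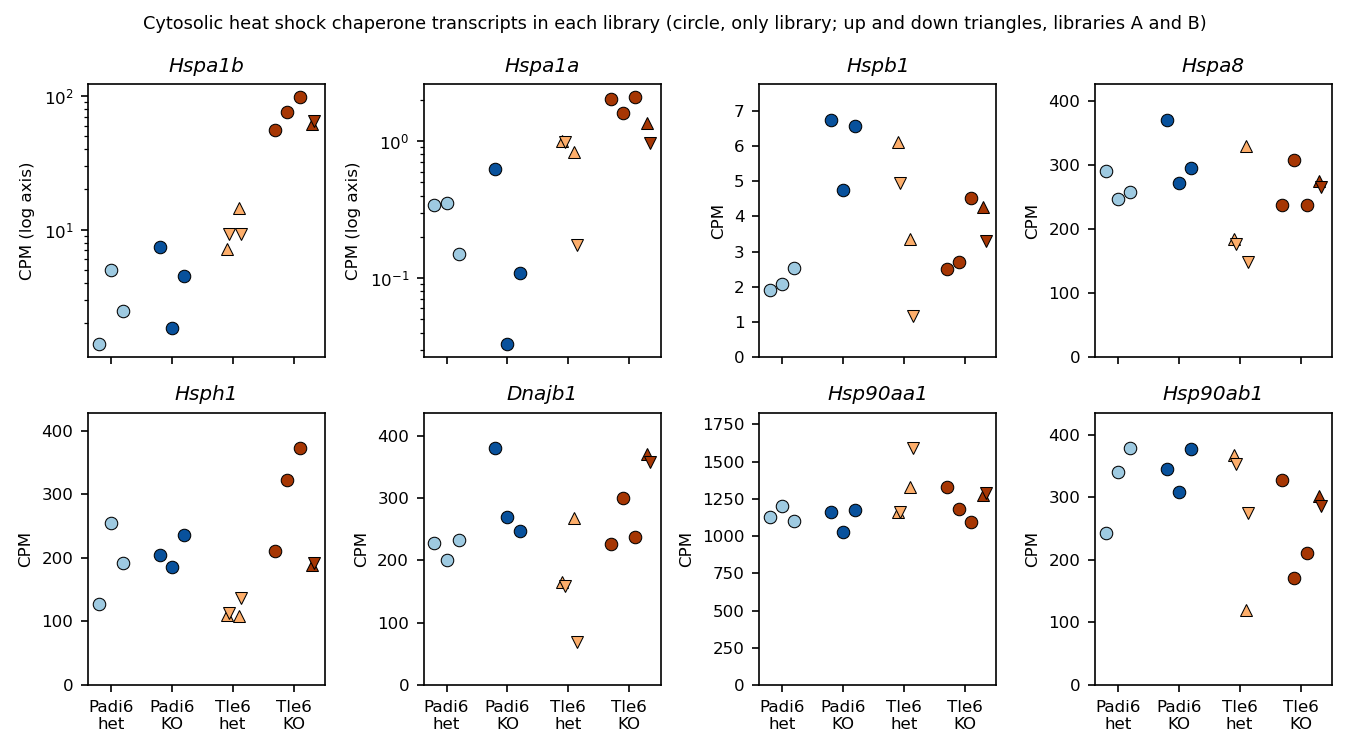
Level of each member in each of the 15 libraries, in CPM; the upper left 2 panels have a log axis and the others start at 0. Circles are biological replicates with 1 library, and up and down triangles are technical libraries A and B. Hspa1b is highest in the 4 Tle6 KO replicates (55.5 to 98.5 CPM) and Hspb1 in the 3 Padi6 KO libraries (4.76 to 6.75 CPM) together with Tle6 het replicate 1.

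Among the HSP70 genes, Hspa1b, the stress-inducible HSP70, had the widest range as a ratio. It stood at 8.04 and 11.1 CPM in Tle6 het replicates 1 and 2 and at 55.5, 75.6, 98.5 and 63.1 CPM in Tle6 KO replicates 1 to 4. The groups did not overlap: library A of het replicate 2, the highest het library, had 14.5 CPM, far below the lowest KO replicate. The mean was 73.2 ± 18.8 CPM in Tle6 KO (SD, n = 4) against 9.57 ± 2.17 in Tle6 het (n = 2), a log2 fold change of 2.77 ± 0.30 (SE, 6.80-fold), which ran from 2.51 to 3.01 when replicates were left out in turn. This is the value that put the gene in the list, so no p-value is given.

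In the Padi6 line Hspa1b was low in both groups, at 1.38, 4.99 and 2.47 CPM in het and 7.46, 1.84 and 4.53 CPM in KO. The groups overlapped, and the log2 fold change of 0.67 ± 0.51 did not pass edgeR's quasi-likelihood test (Benjamini-Hochberg adjusted p = 0.541). The group with the higher mean in the Padi6 line, KO at 4.61 ± 2.81 CPM (n = 3), was still below both Tle6 het replicates.

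Hspa1a, the sister gene of Hspa1b on chromosome 17, had far fewer counts, 43 over the 3 Padi6 het libraries and 438 over the 4 Tle6 KO replicates. It stood at 1.00 and 0.406 CPM in Tle6 het and at 2.04, 1.60, 2.10 and 1.20 CPM in Tle6 KO, all KO replicates above both het replicates (log2 fold change 1.16 ± 0.47, given without a p-value). The libraries of het replicate 2 had 0.835 and 0.173 CPM. In the Padi6 line it stood at 0.341, 0.353 and 0.149 CPM in het and 0.627, 0.0328 and 0.109 CPM in KO, with overlap (log2 fold change -0.07 ± 0.82, adjusted p = 0.980). Hspa1a made up 1.87 to 11.1% of the summed counts of both genes in the Tle6 line.

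Hspa8, which folds new proteins and strips clathrin from vesicles, was far above both inducible genes. It had 291, 246 and 258 CPM in Padi6 het and 371, 273 and 295 CPM in Padi6 KO, which overlapped (log2 fold change 0.26 ± 0.12, edgeR adjusted p = 0.293). It had 181 and 213 CPM in Tle6 het and 237, 307, 237 and 272 CPM in Tle6 KO, all above het, but the change of 0.26 ± 0.18 did not pass the test (adjusted p = 0.489). In Tle6 het replicate 2 library A had 331 and library B 149 CPM, and without library B the log2 fold change was 0.00.

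Hsph1, the HSP110 that exchanges the nucleotide of HSP70, stood at 112 and 126 CPM in Tle6 het and at 212, 323, 373 and 191 CPM in Tle6 KO. All KO replicates were above both het replicates, and so they were above each of the 4 het libraries, which had 108 to 136 CPM. The log2 fold change of 1.04 ± 0.28 (2.05-fold) did not pass edgeR's test over all genes (adjusted p = 0.103). It passed in 3 of 15 alternatives, with no filter on low counts (adjusted p = 0.00404), with DESeq2 (0.0217) and where both lines shared a spread (0.0413), and the alternatives' adjusted p ranged up to 0.289. In the Padi6 line Hsph1 had 127, 254 and 192 CPM in het and 204, 186 and 237 CPM in KO, which overlapped (0.15 ± 0.21, adjusted p = 0.756). The effects of the lines differed by 0.83 ± 0.37 on the log2 scale, which did not pass the interaction test (adjusted p = 0.223).

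Dnajb1, the J protein that starts the HSP70 cycle and is itself induced by stress, was higher in all knockout replicates of both lines, without passing the test in either. It stood at 228, 200 and 232 CPM in Padi6 het and at 380, 270 and 247 CPM in Padi6 KO (log2 fold change 0.46 ± 0.14, edgeR adjusted p = 0.13). It stood at 162 and 139 CPM in Tle6 het and at 227, 300, 237 and 365 CPM in Tle6 KO (0.76 ± 0.23, adjusted p = 0.139). The separation in the Tle6 line needed library B of het replicate 2, which had 68.5 CPM where library A had 268 CPM, above 2 of the KO replicates. Without library B the log2 fold change was 0.35 (adjusted p = 0.633), and without library A it was 1.08 (adjusted p = 0.116). The interaction was 0.25 ± 0.28 (adjusted p = 0.668). The share of all genes whose KO and het replicates separate completely was not counted. Nothing is therefore read from such separation, in Dnajb1 or in the other members.

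Hspb1, the small heat shock protein gene, had the largest fitted change of the 8 members in the Padi6 line. It stood at 1.91, 2.08 and 2.52 CPM in Padi6 het and at 6.75, 4.76 and 6.59 CPM in Padi6 KO, so the groups did not overlap. The means were 2.17 ± 0.317 and 6.03 ± 1.11 CPM (SD, n = 3 each), from 347 and 1065 counts, and the log2 fold change was 1.49 ± 0.22 (SE, 2.81-fold), from 1.40 to 1.64 when a replicate was left out. This change was used in choosing the list, so it is given without a p-value.

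In the Tle6 line Hspb1 stood at 5.64 and 1.95 CPM in het and at 2.50, 2.71, 4.54 and 3.91 CPM in KO. All KO values fell between the het replicates, and the log2 fold change of -0.29 ± 0.44 did not pass edgeR's test (adjusted p = 0.761). Its sign depended on which het replicate was used, being 0.61 without het replicate 1 and -0.89 without het replicate 2. The libraries of het replicate 1 had 6.13 and 4.95 CPM and those of het replicate 2 had 3.36 and 1.17 CPM.

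The HSP90 genes, whose proteins mature kinases and steroid receptors, passed the test in neither line. Hsp90aa1 stood at 1130, 1204 and 1104 CPM in Padi6 het, 1164, 1025 and 1177 CPM in Padi6 KO, 1158 and 1499 CPM in Tle6 het and 1331, 1182, 1091 and 1279 CPM in Tle6 KO. The groups of each line overlapped, with log2 fold changes of -0.01 ± 0.10 (edgeR adjusted p = 0.978) in Padi6 KO and -0.28 ± 0.20 (adjusted p = 0.486) in Tle6 KO. Hsp90ab1 stood at 243, 341 and 379 CPM in Padi6 het, 345, 309 and 378 CPM in Padi6 KO, 362 and 220 CPM in Tle6 het and 328, 172, 211 and 297 CPM in Tle6 KO. Of het replicate 2, library A had 120 and library B 275 CPM. Here too the groups overlapped, with log2 fold changes of 0.12 ± 0.16 (adjusted p = 0.742) and -0.34 ± 0.31 (adjusted p = 0.592), the latter at -0.04 without library B and -0.57 without library A. Hsp90aa1 made up 74.5 to 87.3% of the summed counts of both genes.

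**Figure D3:**
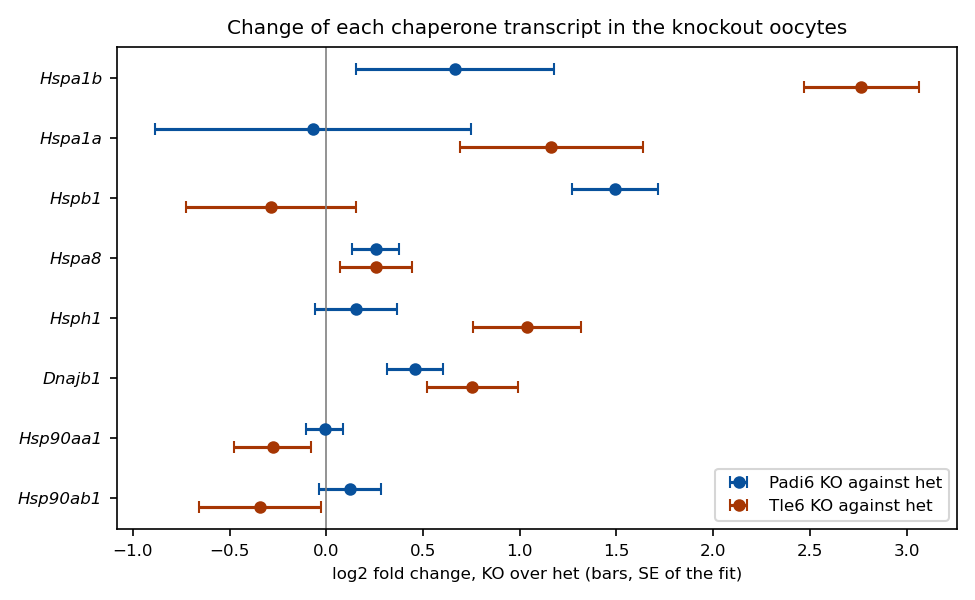
Log2 fold change of each member, KO over het, in blue for Padi6 and in brown for Tle6; points are fitted values and bars are ± 1 SE of the fit. Hspb1 stands apart at 1.49 in blue and Hspa1b at 2.77 in brown, while both HSP90 genes lie between -0.34 and 0.12.

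Counted over the list, 1 of 8 members passed the test in Padi6 KO, Hspb1, where 2.41% of 18228 genes did (308 or 1.69% higher and 132 or 0.724% lower), and 1 of 8 passed in Tle6 KO, Hspa1b, where 1.62% of 20276 genes did (119 or 0.587% higher and 210 or 1.04% lower). Since these are the genes and comparisons by which the list was chosen, nothing is read from those counts. Of the 7 members in the Padi6 line that the choice did not use, 0 passed edgeR's test, 1 had an unadjusted p under 0.05 (18.6% of all genes tested did) and 0 passed with DESeq2 (7.15% of all genes). Of the corresponding 6 in the Tle6 line, 0 passed, 2 had an unadjusted p under 0.05, Hsph1 and Dnajb1 (19.0% of all genes did), and 1 passed with DESeq2 (8.34% of all genes). The median log2 fold change of those 7 and 6 members was 0.15 in Padi6 KO and -0.01 in Tle6 KO, beside -0.01 and 0.06 over all genes tested. Scaling by total count moved the median of all genes in the Tle6 line to 0.22 and the split of calls to 158 higher and 144 lower, and no member of the list changed sign with it in either line.

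For the difference between the lines, 4.32% of 21392 genes passed the interaction test (280 or 1.31% higher and 644 or 3.01% lower, and 417 and 392 genes with total count scaling). Of the 5 members not used in the choice 0 passed, 1 had an unadjusted p under 0.05 (Hsph1, beside 20.7% of all genes) and 0 passed with DESeq2 (9.21% of all genes). As a description, the log2 fold change of Hspa1b was 2.04 ± 0.66 higher in the Tle6 line than in the Padi6 line, and that of Hspb1 was lower by a log2 difference of -1.83 ± 0.51.

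The het oocytes of the lines were also compared with each other. Since the het values of Hspa1b and Hspb1 entered the choice of the list, these genes and Hspa1a are described here without a p-value. Hspa1b was at a higher level in both Tle6 het replicates than in the 3 Padi6 het libraries, with a log2 fold change of 2.03 ± 0.49 that ran from 1.69 to 2.59 when a replicate was left out. For Hspb1 it was 1.10 ± 0.39, with overlapping replicates and 0.18 without Tle6 het replicate 1, and for Hspa1a 1.63 ± 0.77. Of the 5 members whose values the choice did not use, Hsp90aa1 passed edgeR's test (0.53 ± 0.16, adjusted p = 0.0259), beside a background in which 28.5% of 21392 genes passed (15.9% higher, 12.7% lower). Its replicates overlapped in CPM, it was at 0.29 (adjusted p = 0.214) without library B of Tle6 het replicate 2, and the call was lost without Tle6 het replicate 2 or any 1 Padi6 het library. Scaling by total count moved the median of all genes from -0.03 to -0.34 and turned the split of 3392 higher and 2715 lower genes into 2054 and 4494, and with it Hsp90aa1 did not pass (0.21, adjusted p = 0.287). Strain, targeted gene and preparation of the line cannot be told apart in this comparison.

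Close copies limit how the counts of 5 members can be read, because reads aligned to more than 1 place were not counted for any gene and made up 12.1 to 14.5% of reads. Of all 75-base windows of the reference transcript, 38.3% of Hspa1a and 44.2% of Hspa1b occurred in no other gene's transcripts, and with 150-base windows 54.0% and 59.5%. Their coding sequences differed at 8 of 1926 aligned bases (99.6% identity), and 564 of the 2967 exonic bases of Hspa1a (19.0%) overlap Gm20481 on the opposite strand. For Hspb1 52.7% of 75-base windows were unique, and the rest occurred in its processed copy Hsp25-ps1. The values were 31.4% for Hspa8, which has several such copies, 46.9% for Hsp90aa1, 99.3% for Hsp90ab1 and 100% for Hsph1 and Dnajb1. Windows were read from GENCODE M21 transcripts and the sources used here do not give the read length.

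**Figure D4:**
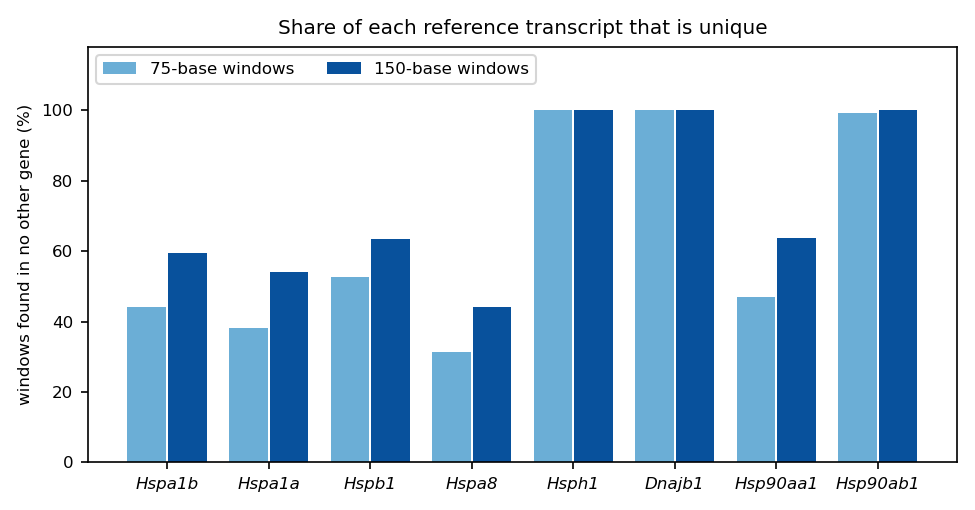
Share of the 75-base (light) and 150-base (dark) windows of each member's reference transcript that occur in no other gene's transcripts, in percent. Hsph1, Dnajb1 and Hsp90ab1 are at or near 100%, while Hspa8, at 31.4% and 44.0%, and Hspa1a, at 38.3% and 54.0%, have the least unique sequence.

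Counts of 2 such copies differed between libraries. Hsp25-ps1 had 2.23 and 2.43 CPM in the libraries of Tle6 het replicate 1 and 1.57 CPM in library A of het replicate 2. It had 0.0995 to 0.342 CPM in the other 12 libraries, which include library B of het replicate 2 at 0.294 CPM. The replicate with the most Hsp25-ps1 was thus also the Tle6 het replicate with the most Hspb1. In the Padi6 line Hsp25-ps1 had 0.281, 0.166 and 0.0995 CPM in het and 0.342, 0.230 and 0.263 CPM in KO, which overlapped. Reads that match both genes were counted for neither, so these values do not give the part of the copy. Gm15459, the gene that shares the most 75-base windows with Hspa8, had 25.3 and 18.1 CPM in Tle6 het, 3.32 to 5.83 CPM in Tle6 KO and 32.1 to 54.6 CPM in the Padi6 line. The part of these copies in the members' values was not tested.

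Hspa1a and Hspa1b are neighbours on chromosome 17, and their surroundings were read as well. Over the 20 nearest tested genes, 10 on each side by gene order, the median log2 fold change in Tle6 KO was 0.18 around Hspa1b (from -1.66 to 2.15, with 0 called), with Hspa1b itself at 2.77. Around Hspb1 on chromosome 5 it was -0.15 in Padi6 KO, with Hspb1 at 1.49, and in Tle6 KO it was 0.45, with Dtx2 and Upk3b called higher.

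Over the 8 related chaperone lists together, 2 of 76 tested genes passed in Padi6 KO, 15 had an unadjusted p under 0.05 and DESeq2 called 7, and in Tle6 KO 1 of 76 passed, 20 had an unadjusted p under 0.05 and DESeq2 called 6. These shares stand beside 2.41%, 18.6% and 7.15% of all genes in the Padi6 fit and 1.62%, 19.0% and 8.34% in that of Tle6, which are the background for each list that follows. In the interaction test 4 of 78 passed, 21 had an unadjusted p under 0.05 and DESeq2 called 8. Over all genes 4.32%, 20.7% and 9.21% did. The 4 are Hsf5, Dnajc6, Unc45a and Dnajb9, a share near that of all genes, so nothing is read from their number. Among the heat shock factors, which include HSF1, the main activator of the stress response, 4 of 6 genes could be tested, and 0 passed edgeR's test in either line (1 in each line had an unadjusted p under 0.05, and DESeq2 called 1 in Padi6 KO and 0 in Tle6 KO). Hsf1 stood at 21.0 to 22.4 CPM in Padi6 het, 20.2 to 21.2 in Padi6 KO, 8.20 and 12.8 in Tle6 het and 13.1 to 28.0 in Tle6 KO (log2 fold changes -0.04 ± 0.11 and 0.63 ± 0.34). Hsf5, a factor of the germ line, differed between the lines by -0.81 ± 0.21 on the log2 scale (adjusted p = 0.0469), at 110 to 119 CPM in Padi6 het, 141 to 164 in Padi6 KO, 101 and 104 in Tle6 het and 81.2 to 106 in Tle6 KO; it is named because it was the 1 gene of that list past the interaction test, after its values were seen. Also named outside the rule for naming genes, with their values known, are the stress-inducible genes Cryab and Bag3. Cryab, another small heat shock protein, was at 0.104 CPM or less in every library. Bag3, an HSP70 exchange factor that works with HSPB1, was at 0.166 CPM or less. They do not stand for the related lists, whose tested genes went both ways in Tle6 KO. Positive and negative changes numbered 14 and 5 for HSP90 co-chaperones, 9 and 4 for mitochondrial chaperones, and 2 and 12 for endoplasmic reticulum chaperones.

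Of the other HSP70 and HSP110 genes, 5 were tested and 0 passed in either line (0 and 2 had an unadjusted p under 0.05 in Padi6 KO and Tle6 KO, and DESeq2 called 0 and 1), with medians of 0.01 and -0.09. HSP70 exchange and helper factors had 7 tested genes in the Padi6 fit and 6 in that of Tle6, of which 0 passed (2 and 0 had an unadjusted p under 0.05, and DESeq2 called 1 and 0), with medians of -0.27 and -0.00. Of 13 other cytosolic J protein genes, Dnajc6, which encodes auxilin, the J protein that works with HSPA8 in removing clathrin, was lower in Tle6 KO, at 0.455 to 1.56 CPM against 3.61 and 5.43 CPM in het (log2 fold change -2.66 ± 0.51, adjusted p = 0.0425), and 12 did not pass. In the Padi6 line it had 0.91 with 0 of 13 J proteins past the test (3 at an unadjusted p under 0.05, 0 with DESeq2), and the lines differed by -3.61 ± 0.66 (adjusted p = 0.00920). The Tle6 call of Dnajc6 held in 7 of 15 alternatives and was lost, among others, on leaving out either het replicate, which left 1. Its log2 fold change ran from -3.25 to -2.39 with any replicate left out.

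Of 19 HSP90 co-chaperone genes, Unc45a, which serves the folding of myosin, was lower in Padi6 KO (log2 fold change -2.73 ± 0.61, adjusted p = 0.0480) and 18 did not pass. It is a weakly expressed gene, at 0.431 to 2.16 CPM in Padi6 het and 0.114 to 0.284 CPM in Padi6 KO, and the call was lost on leaving out any replicate but Padi6 het replicate 3, with an adjusted p of up to 0.185 over the alternatives. The lines differed in Unc45a by 5.56 ± 1.23 on the log2 scale (adjusted p = 0.0242), a call lost without Padi6 het replicate 2, Padi6 KO replicate 1 or 2, or Tle6 het replicate 2 (adjusted p of up to 0.106). The median of the co-chaperones was -0.13 in Padi6 KO and 0.30 in Tle6 KO, where 0 of 19 passed (3 at an unadjusted p under 0.05, 0 with DESeq2). Chaperones of other compartments were set beside the cytosolic ones. Of 13 mitochondrial chaperone genes 0 passed in either line (2 and 3 at an unadjusted p under 0.05, and DESeq2 called 1 and 2), with medians of -0.07 and 0.30. Of 14 chaperone genes of the endoplasmic reticulum, Dnajb9, a J protein of that compartment, was higher in Padi6 KO, at 11.8 to 14.6 against 7.21 to 8.32 CPM (0.74 ± 0.16, adjusted p = 0.0459), and 13 did not pass. The call of Dnajb9 was lost on leaving out any 1 replicate, with an adjusted p of up to 0.153. The lines differed in Dnajb9 by -1.33 ± 0.25 (adjusted p = 0.0106, and 19 of 19 alternatives passed). In Tle6 KO 0 of the 14 passed, 8 had an unadjusted p under 0.05, DESeq2 called 2, and the median was -0.46 (19.0% of all genes had an unadjusted p under 0.05).

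**Figure D5:**
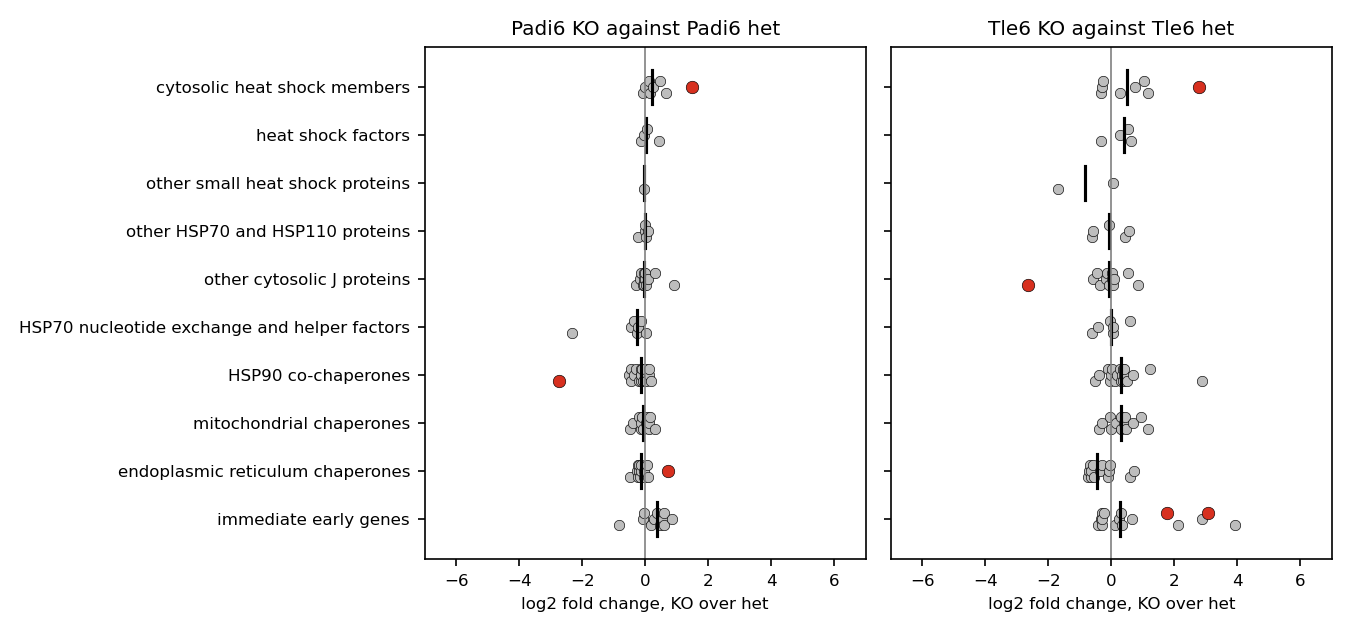
Log2 fold change of every tested gene of the members and of 9 related lists, KO over het, in each line; each point is a gene, red points passed the test at an adjusted p under 0.05 and black bars are list medians. The endoplasmic reticulum chaperones had medians of -0.15 and -0.46; Hspb1 and Hspa1b are the red points of the first row and were used in choosing it.

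Genes that respond early to stress and to cell handling were measured beside the members. Of 16 tested immediate early genes in the Tle6 line, the AP-1 subunit gene Junb and the related Ier2 were higher in Tle6 KO and 14 did not pass. Junb was at 0.615 to 1.21 CPM in KO against 0.0778 and 0.133 in het (log2 fold change 3.06 ± 0.54, adjusted p = 0.0326), and Ier2 at 2.59 to 4.05 against 0.856 and 0.916 CPM (1.76 ± 0.33, adjusted p = 0.0399). The call of Junb held in 7 of 15 alternatives and that of Ier2 in 6 of 15. Both calls were lost, among others, without either library of het replicate 2 and on leaving out either het replicate, which left 1. The summed level of the 20 genes of that list was 270 ± 39.2 CPM in Tle6 KO (n = 4) and 296 ± 0.509 in Tle6 het (n = 2; two-sided exact permutation p = 0.4, where the lowest this design can give is 0.0667). In the Padi6 line KO had 278 ± 37.8 CPM and het 192 ± 33.4 (n = 3 each, exact p = 0.1, the smallest possible), while 0 of 11 tested genes of the list passed (3 at an unadjusted p under 0.05, 3 with DESeq2). The part of these genes in the members' changes was not tested.

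The summed markers of other cells were compared by two-sided exact permutation tests. Summed granulosa and cumulus markers were at 645 to 740 CPM in Padi6 KO against 687 to 784 CPM in Padi6 het (n = 3 each, exact p = 0.5), and at 393 to 717 CPM in Tle6 KO (n = 4) and 405 and 529 in Tle6 het (n = 2, exact p = 0.6). Theca and stroma markers summed to 3.84 to 5.68 CPM in Tle6 KO and 6.42 and 6.66 CPM in Tle6 het, which did not overlap (exact p = 0.0667, the smallest possible), and to 3.13 to 6.17 and 5.28 to 6.76 CPM in Padi6 KO and het (exact p = 0.4). The highest sum of blood and immune markers in any replicate was 3.33 CPM. Taken gene by gene, 13 of 16 tested granulosa and cumulus markers had a positive log2 fold change in Tle6 KO (54.1% of all genes did). Their median was 0.95 and 0 passed edgeR's test (5 had an unadjusted p under 0.05, and DESeq2 called 2). In Padi6 KO 2 of 14 were positive (49.2% of all genes), with a median of -0.51, and 1 passed, higher in KO. There 5 had an unadjusted p under 0.05 and DESeq2 called 4. Of 9 tested theca and stroma markers 0 passed in Tle6 KO, 6 had an unadjusted p under 0.05 and DESeq2 called 4. Of 6 in Padi6 KO these counts were 0, 3 and 0. Over all genes the unadjusted and DESeq2 shares were 19.0% and 8.34% in Tle6 KO, and 18.6% and 7.15% in Padi6 KO. The part of these markers in the changes of Hspa1b and Hspb1 was not tested.

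The genes with the profile most like that of Hspb1 over the 12 biological replicates, by the root mean square difference of centred log2(TMM-scaled CPM + 1), were Tubb5 (0.33), Mtrr (0.34), Dkk3 (0.35), Tfrc (0.35) and Tspan13 (0.36), where the median of 8866 protein-coding genes was 0.62. All 5 had a higher mean in Padi6 KO than in Padi6 het, but they differed in the Tle6 line. Dkk3 had 18.6 ± 4.23 CPM in Padi6 KO against 7.28 ± 1.35 CPM in Padi6 het (n = 3 each). It had 6.92 ± 1.51 CPM in Tle6 KO (n = 4) and 7.50 ± 3.20 CPM in Tle6 het (n = 2). Tfrc also had a lower mean in Tle6 KO, 6.71 against 7.78 CPM. Tubb5, Mtrr and Tspan13 had higher means in Tle6 KO, with overlapping replicates, unlike Hspb1. Tubb5, the nearest, had means of 355 CPM in Tle6 KO and 275 CPM in Tle6 het. Those nearest to Hspa1b were Cyp39a1 (0.56), Efna4 (0.63), Tmem222 (0.74), Colgalt2 (0.78) and Nrg1 (0.79), where the median of 8865 genes was 1.94. Each was higher in the Tle6 line than in the Padi6 line, as Efna4 was, at 77.2 to 200 CPM in Tle6 KO, 31.4 and 34.9 CPM in Tle6 het, 7.40 to 7.93 CPM in Padi6 KO and 9.57 to 10.4 CPM in Padi6 het. Among the members, Hspa1a was the nearest to Hspa1b, at rank 268, and Hspb1 lay at rank 4600. Such likeness is a description over replicates that share strain and library preparation within a line.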

How the data were processed

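Polyadenylated RNA of 15 oocytes per library went into libraries made with a QIAseq FX Single Cell RNA Library Kit, per the labels' protocols. The authors deposited whole-number read counts per gene, not normalised, for 15 libraries. The submitters' processing notes name bcl2fastq 2.20.0.422, cutadapt 2.8, STAR 2.7.8a, HTSeq 2.0.2 and mm39. The sources used here do not give the annotation release, read length or strand setting, so overlapping genes are uncertain. Summary lines and 92 spike-in rows stayed out of library sizes; reads in no gene were 5.39 to 7.29% and ambiguous reads 3.85 to 4.20%. GENCODE M21 gave symbols for 52093 identifiers and none for 1607.

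Technical libraries were added per biological replicate. The test was that of edgeR 4.0.16 on R 4.3.3, for genes that passed filterByExpr (TMM scaling, robust glmQLFit and glmQLFTest, two-sided, Benjamini-Hochberg adjustment over all genes tested, threshold 0.05). Each line was fitted by itself; the difference between lines and the het comparison used all 12 replicates. CPM are per total gene count, while fold changes come from TMM-scaled fits. The fits were also run on simulated counts with the same fixed spread for every gene. That spread was smaller than the one estimated in the Tle6 fit and in the fits of all 12 replicates. The run therefore does not show how the test performs on these data. Alternatives were RLE or total count scaling, no filter, DESeq2 1.42.0, a shared spread, a replicate block, either library of Tle6 het replicate 2 left out, Hspa1a and Hspa1b added, and each replicate left out. Same-numbered het and KO libraries of the Padi6 line deviated from their group means with r = 0.427, 0.0475 and 0.197. Different-numbered ones did so with r from -0.408 to 0.294. These values do not settle whether the numbers pair the libraries, so the main fits were unpaired and a replicate block was an alternative.

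Named were the members, both targeted genes, genes of each related list called in either line (at most the 4 with the smallest p) and the 5 nearest profiles to Hspb1 and Hspa1b, among protein-coding genes with a mean of at least 5 CPM. Some further genes, among them Hsf5, Cryab and Bag3, were named outside this rule. The members and lists were chosen with earlier results of these data known. The total count scaling, and TMM-scaled CPM for the marker sums, were chosen after seeing the data.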

Additional observations from a re-analysis of the deposited data

How the results depend on the processing

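Hspa1b kept its sign in Tle6 KO in 14 of 14 alternatives and Hspb1 in Padi6 KO in 13 of 13. The Tle6 line had 2 het replicates, 1 of them with disagreeing technical libraries, and Hspa1a had 43 to 438 counts per group.

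The number of genes called in Padi6 KO, 440, was 1625 with no filter, 1315 with DESeq2, 60 with a spread shared by both lines and 61 to 258 with a replicate left out; members called higher were then 2 with no filter, 0 with the shared spread and 0 without Padi6 KO replicate 3. The number in Tle6 KO, 329, was 1447 with no filter, 1724 with DESeq2, 2061 with the shared spread, 120 without library B of Tle6 het replicate 2 and 119 to 292 with a replicate left out, and 2 members were called higher with no filter, DESeq2 or the shared spread. In the difference between the lines, the 924 genes became 2078 with no filter, 1973 with DESeq2, 382 without library B and 406 to 1465 with a replicate left out; members called higher were 2 with no filter and 1 with DESeq2, and 1 was called lower with no filter, with DESeq2, without library B and without Tle6 het replicate 2 (0 to 1 with a replicate left out). In Tle6 het against Padi6 het, the 6107 genes became 3724 without library B and 3953 to 6283 with a replicate left out. The 3 members called higher, Hspa1b, Hspb1 and Hsp90aa1, became 1 with total count scaling and 1 to 3 with a replicate left out. Of all genes tested, 15.9% were called higher in the main fit. The het values of Hspa1b and Hspb1 entered the choice of the list, so nothing is read from their calls. In the main fits the member called was Hspb1 in Padi6 KO and Hspa1b in Tle6 KO. The list was chosen by these, so nothing is read from the counts of members called. The cause of the shifts in the counts was not tested.

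In Padi6 KO, without het replicate 1, Hsp90ab1 was -0.044 and Hsph1 -0.070 (with any replicate left out, -0.044 to 0.27 and -0.070 to 0.40). Hspa1a, at -0.07, kept its sign in 8 of 13 alternatives, counting the setting in which the counts of Hspa1b were added to it. It ran from -1.95 to 0.45 with a replicate left out. Hsp90aa1, at -0.01, kept its sign in 11 of 13 and ran from -0.065 to 0.055. In Tle6 KO, without het replicate 1, Hspb1 was 0.61 and Hsp90ab1 0.00098 (with any replicate left out, -0.89 to 0.61 and -0.68 to 0.00098). In the difference between the lines Hspa8 was 0.18 with total count scaling and Dnajb1 -0.11 without library B. In Tle6 het against Padi6 het, Hsp90ab1 was -0.14 with total count scaling, -0.18 without library B and -0.20 without Tle6 het replicate 1 (-0.20 to 0.45 with any replicate left out), and without library B Hspa8 was 0.092, Dnajb1 0.11 and Ier2 -0.46. The difference in summed oocyte markers of the Tle6 line, 987 CPM, was -1072 with TMM-scaled CPM, 2726 without library A and -2213 without library B; that of blood and immune markers ran from -1.17 to 0.856 with a replicate left out, and that of immediate early genes was 19.8 without library B.

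With the replicate number as a block, 859 genes were called in Padi6 KO and 57 in Tle6 KO. The count of members called stayed at 1 in each line, from which nothing is read either. Same-numbered Tle6 replicates correlated at 0.172 and 0.304, over 2 pairs.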
